A study of Mus musculus with 12 samples.

Results

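The genes described here encode the nuclear subunits of respiratory complex I and its assembly factors, and they are all genes whose symbol starts with Nduf in the annotation of the array. They were taken from probe sets with exactly 1 gene symbol, with the brightest probe set kept for each gene by its mean over the 12 arrays. This gave 42 genes of the 22180 genes tested. Levels are log2 values as deposited, and every difference below is a difference of log2 values.

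The study profiled adipocytes made from mouse inguinal fat precursors on 12 Affymetrix arrays, in 4 groups of 3. All cells carried the genotype R26Cre/Prdm16floxEx9, a Cre recombinase gene at the Rosa26 locus with a floxed exon of Prdm16, which encodes a transcriptional regulator of the brown and beige fat program. The precursors were given 1 uM 4-hydroxytamoxifen (4OHT), which activates ligand-dependent forms of Cre, or the vehicle ethanol (EtOH) for 3 days. They were then differentiated with or without 1 uM rosiglitazone, a drug that activates PPARgamma, the master regulator of fat cell formation. The groups were 4OHT_Rosi (4OHT, then rosiglitazone), EtOH_Rosi (ethanol, then rosiglitazone), 4OHT (4OHT, no rosiglitazone) and EtOH (ethanol, no rosiglitazone). All groups share the differentiation medium, which contained isobutylmethylxanthine, indomethacin, dexamethasone, insulin and T3. No group without Cre was given 4OHT, so an effect of the drug itself and the loss of the floxed exon cannot be told apart. The labels do not say that the 3 arrays of a group were separate cultures, so the p-values measure the spread between arrays, which may be technical.

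Complex I, the NADH:ubiquinone oxidoreductase, is the entry point of NADH electrons into the mitochondrial respiratory chain. Its peripheral arm holds the N module, which oxidizes NADH, and the Q module, which passes electrons through iron-sulfur clusters to ubiquinone, and its membrane arm pumps protons. Brown and beige adipocytes are rich in mitochondria, and the gradient that their respiratory chain builds is what the uncoupling protein Ucp1 dissipates as heat. Some membrane subunits are encoded in mitochondrial DNA and were not analysed here.

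Across genes, Pearson's r was 0.996 to 0.998 between replicate arrays and 0.981 to 0.996 between arrays from 2 groups. Array 4OHT_Rosi 3 had a score of 16.02 on the third principal component (5.7% of the variance), where all others scored from -8.95 to 7.97. The 6 adipocyte markers, among them Adipoq, Fabp4 and Plin1, were bright in every group, with a mean level between 12.04 and 12.58 on all arrays, while the median over all genes tested was 6.60. Prdm16, the targeted gene, was at 6.63, 6.70 and 6.63 in 4OHT_Rosi, against 7.20, 7.46 and 7.44 in EtOH_Rosi. Without rosiglitazone it was at 6.33, 6.45 and 6.59 in 4OHT, against 6.55, 6.49 and 6.84 in EtOH. Its difference was -0.71 ± 0.10 with rosiglitazone (limma SE, n = 3 each, adjusted p = 0.000646) and -0.17 ± 0.10 without it (adjusted p = 0.455). Prdm16 had 2 probe sets with 1 symbol, and these values are from the brighter one alone. The position of that probe set with respect to exon 9 was not looked up here, so its level is no direct check of the deletion.

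Nduf genes rose with rosiglitazone almost as a block, by modest amounts that differed between genes. After ethanol, 40 of the 42 Nduf genes were higher in EtOH_Rosi than in EtOH and 0 were lower, at a Benjamini-Hochberg adjusted p under 0.05 over all genes in limma. Of all genes tested, 14.4% were called higher and 16.3% lower in this comparison. The median difference of the 42 genes was 0.55, which is 1.47-fold, against 0.01 over all genes, and the differences ran from 0.06 to 0.89. None of the 42 reached a doubling, and 26 differed by at least 0.5. All 42 differences were above 0. The mean level of the 42 genes per array lay between 10.07 and 10.17 in EtOH_Rosi and between 9.53 and 9.66 in EtOH, with no overlap.

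**Figure D1:**
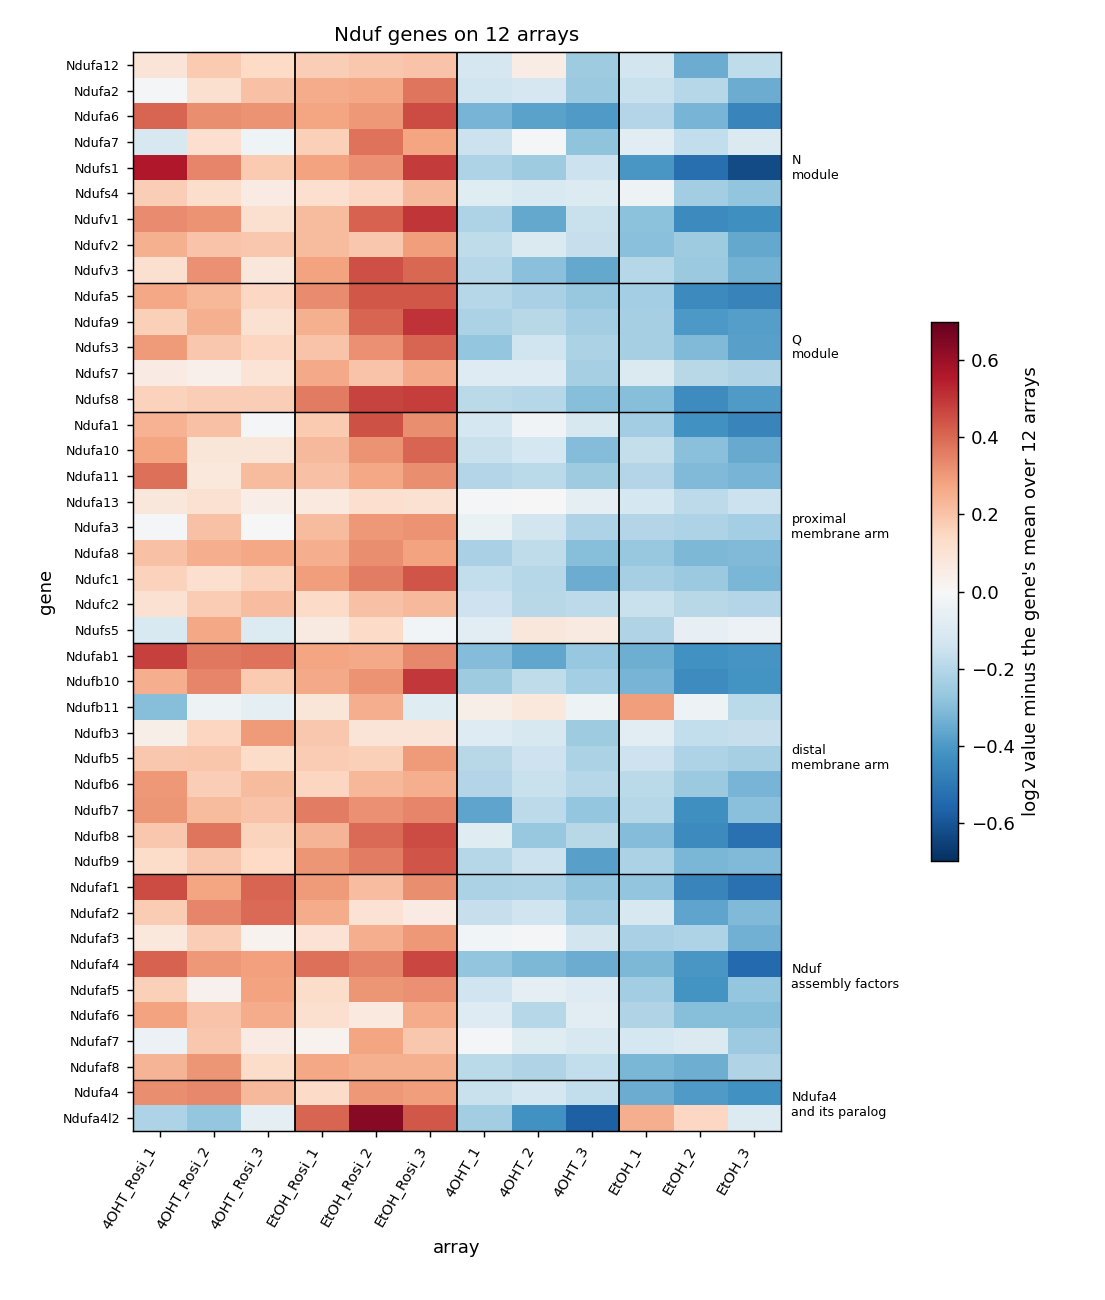
Levels of the 42 Nduf genes (rows, grouped by role) on the 12 arrays (columns), as the log2 value minus the gene's own mean over the 12 arrays, with red above and blue below that mean. The 6 rosiglitazone arrays on the left are above the mean for nearly all genes and the 6 arrays without it below, with Ndufb11, Ndufs5 and Ndufa4l2 as visible exceptions.

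The largest rise after ethanol was in Ndufs1, the largest subunit of the peripheral arm and a carrier of several of its iron-sulfur clusters. Its values were 11.20, 11.24 and 11.41 in EtOH_Rosi, against 10.51, 10.39 and 10.29 in EtOH. The EtOH_Rosi arrays all lay well above the EtOH arrays, and the difference was 0.89 ± 0.09 (1.85-fold, adjusted p = 7.03e-06). Ndufs8, a Q module subunit whose iron-sulfur clusters lie on the path to ubiquinone, stood at 11.48, 11.59 and 11.60 in EtOH_Rosi, against 10.82, 10.68 and 10.72 in EtOH. These groups did not overlap either, and the difference was 0.82 ± 0.06 (adjusted p = 3.53e-07). Ndufaf4, an assembly factor that acts with Ndufaf3 on the Q module, stood at 9.32, 9.28 and 9.40 in EtOH_Rosi, against 8.62, 8.53 and 8.39 in EtOH. Again each EtOH_Rosi array was above each EtOH array, and the difference was 0.82 ± 0.07 (adjusted p = 9.36e-07). Ndufb8, a subunit of the distal membrane arm that is often used as a protein marker of assembled complex I, had values of 9.02, 9.18 and 9.24 in EtOH_Rosi, against 8.48, 8.34 and 8.26 in EtOH. It differed by 0.79 ± 0.08 without overlap (adjusted p = 8.11e-06).

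After 4OHT the same drug also raised most Nduf genes. Of the 42, 33 were higher in 4OHT_Rosi than in 4OHT and 0 were lower, where 11.6% of all genes were called higher and 12.1% lower. The median difference was 0.39, which is 1.31-fold, against 0.00 over all genes, with a range from -0.16 to 0.72, and 6 genes differed by at least 0.5. The mean level per array lay between 10.01 and 10.05 in 4OHT_Rosi and between 9.63 and 9.70 in 4OHT, again without overlap. Without each array in turn between 28 and 33 genes were called, with 31 when 4OHT_Rosi 3 was left out. The genes whose call was lost without some array were Ndufa2, Ndufa12, Ndufaf5, Ndufs4 and Ndufs7, with differences from 0.20 to 0.27.

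Ndufab1, the mitochondrial acyl carrier protein, which is also a complex I subunit, had the largest rise after 4OHT. Its values were 8.16, 8.05 and 8.06 in 4OHT_Rosi, against 7.38, 7.32 and 7.42 in 4OHT, a gap far wider than the spread within either group. The difference was 0.72 ± 0.06 (adjusted p = 8.87e-07). Ndufa6, an N module subunit of the LYR family that binds an acyl carrier protein, stood at 11.22, 11.14 and 11.13 in 4OHT_Rosi, against 10.49, 10.44 and 10.42 in 4OHT, with no overlap. It differed by 0.71 ± 0.07 (adjusted p = 8.67e-06). Ndufaf4 stood at 9.35, 9.24 and 9.22 in 4OHT_Rosi, against 8.66, 8.62 and 8.59 in 4OHT. Ndufaf1, an assembly factor of the membrane arm, had 10.63, 10.45 and 10.58 in 4OHT_Rosi, against 9.95, 9.96 and 9.90 in 4OHT. Neither of these 2 genes had overlapping groups, and their differences were 0.65 ± 0.07 (adjusted p = 1.12e-05) and 0.62 ± 0.07 (adjusted p = 3.01e-05).

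Members of every role rose, with medians per role that lay close together. For all genes tested, the share called higher was 11.6% after 4OHT and 14.4% after ethanol. In the N module 8 of 9 measured genes rose after 4OHT, with a median of 0.36, and 9 of 9 after ethanol, with a median of 0.54. In the Q module 5 of 5 rose both after 4OHT (median 0.40) and after ethanol (median 0.73). The proximal membrane arm had 5 of 9 rises after 4OHT (median 0.34) and 8 of 9 after ethanol (median 0.55). The distal membrane arm had 8 of 9 after 4OHT (median 0.42) and 8 of 9 after ethanol (median 0.65). Of the 8 Nduf assembly factors, which help to build the complex and are not part of it, 6 rose after 4OHT (median 0.39) and 8 after ethanol (median 0.51). The 6 measured core catalytic subunits, Ndufv1, Ndufv2, Ndufs1, Ndufs3, Ndufs7 and Ndufs8, which are conserved from bacteria, rose in both settings, with a median of 0.41 after 4OHT and 0.69 after ethanol.

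Within a module the members differed from each other more than the modules did. Ndufv1, which holds the flavin that accepts electrons from NADH, rose by 0.50 ± 0.09 after 4OHT and by 0.77 ± 0.09 after ethanol. Its partner Ndufv2 rose by 0.36 ± 0.06 after 4OHT and by 0.53 ± 0.06 after ethanol. Ndufs4, an N module subunit whose loss in mice gives a model of Leigh syndrome, was at the low end, with 0.21 ± 0.07 after 4OHT (adjusted p = 0.0364) and 0.35 ± 0.07 after ethanol. In the Q module, Ndufs7, which carries the terminal iron-sulfur cluster next to the ubiquinone site, rose by 0.20 ± 0.06 after 4OHT and 0.41 ± 0.06 after ethanol. Ndufa9, a peripheral subunit beside that site, rose by 0.39 ± 0.07 after 4OHT and 0.73 ± 0.07 after ethanol. In the membrane arm, Ndufa8 rose by 0.48 ± 0.05 after 4OHT and 0.58 ± 0.05 after ethanol. Ndufa13, also known as Grim19 and first described in cell death, differed by 0.11 ± 0.05 after 4OHT (adjusted p = 0.164) and rose by 0.25 ± 0.05 after ethanol.

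**Figure D2:**
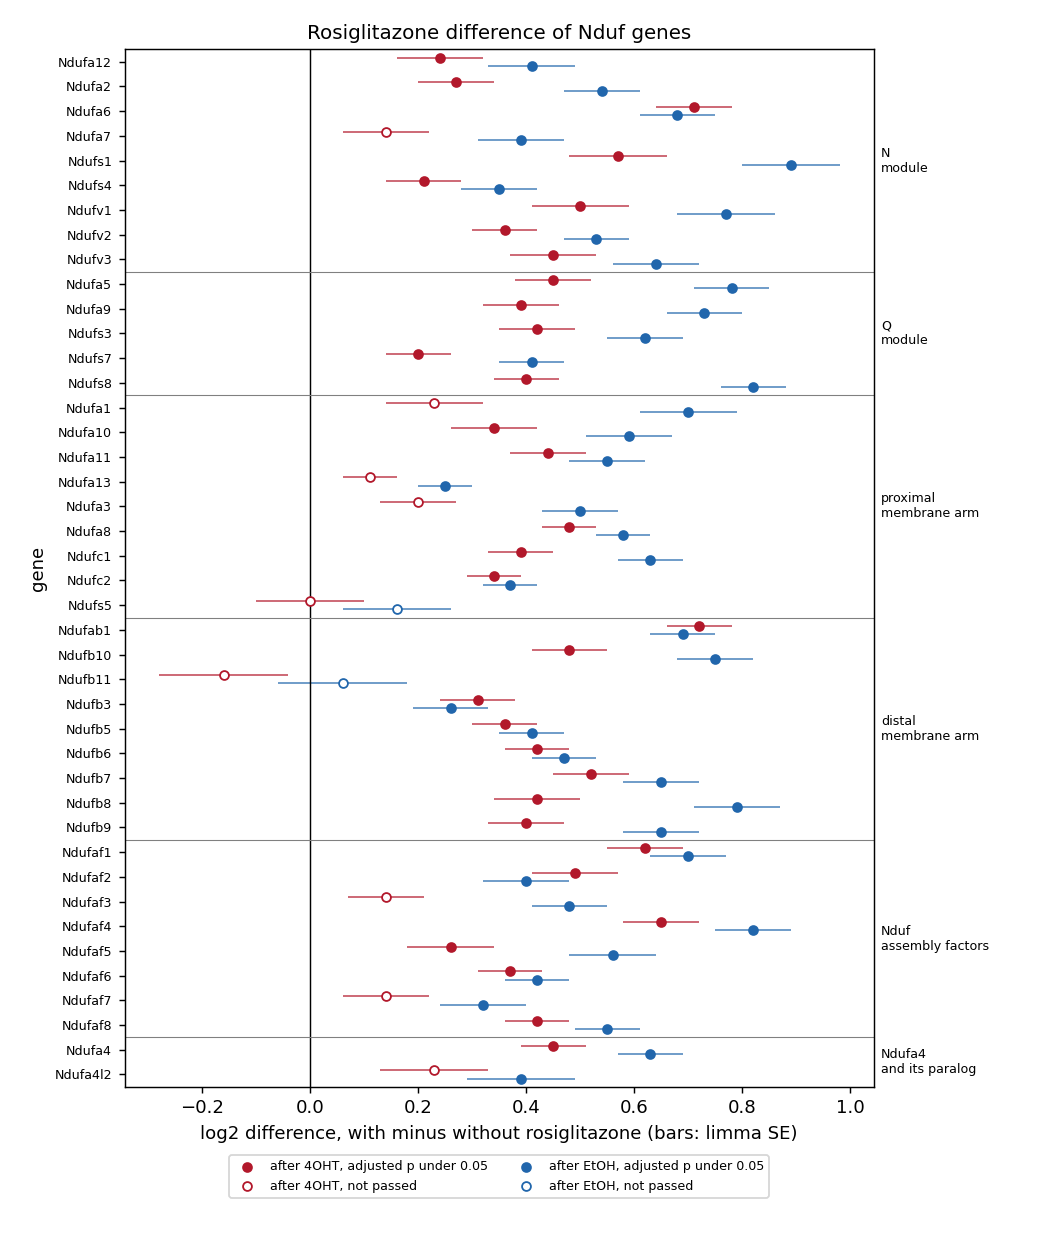
Rosiglitazone differences of the 42 Nduf genes, grouped by role, after 4OHT (4OHT_Rosi minus 4OHT, red) and after ethanol (EtOH_Rosi minus EtOH, blue) on the log2 scale, with limma standard errors as bars and filled points for an adjusted p under 0.05. Most points lie between 0.2 and 0.9, the blue point is to the right of the red one for 38 genes, and the open points include both comparisons of Ndufb11 and Ndufs5.

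The assembly factors spanned the same range. Ndufaf2, a paralog of the subunit Ndufa12 that takes its place during assembly, rose by 0.49 ± 0.08 after 4OHT and 0.40 ± 0.08 after ethanol. Ndufaf6 rose by 0.37 ± 0.06 after 4OHT and 0.42 ± 0.06 after ethanol. Ndufaf8, which works with the hydroxylase Ndufaf5, rose by 0.42 ± 0.06 after 4OHT and 0.55 ± 0.06 after ethanol. Ndufaf3 differed by 0.14 ± 0.07 after 4OHT (adjusted p = 0.181) and rose by 0.48 ± 0.07 after ethanol. The methyltransferase Ndufaf7 differed by 0.14 ± 0.08 after 4OHT (adjusted p = 0.258) and rose by 0.32 ± 0.08 after ethanol.

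Across the 42 genes the difference after 4OHT and the difference after ethanol had a Pearson r of 0.77 and a Spearman rho of 0.74. These comparisons share no array, but they share the probe sets, and genes are not independent replicates. In all, 33 genes passed in both, 0 passed after 4OHT alone and 7 passed after ethanol but not after 4OHT. Those 7 were Ndufa1, Ndufa3, Ndufa4l2, Ndufa7, Ndufa13, Ndufaf3 and Ndufaf7. For none of them did the test of the difference between both settings pass. Of all genes tested, 11.6% were called higher after 4OHT and 14.4% after ethanol. How many of all genes passed in both or in only one of these comparisons was not counted.

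Ndufb11 and Ndufs5, small subunits of the membrane arm, passed in neither rosiglitazone comparison. Ndufb11 was at 5.91, 6.17 and 6.14 in 4OHT_Rosi and 6.29, 6.46 and 6.12 in EtOH_Rosi. Without rosiglitazone it was at 6.25, 6.28 and 6.17 in 4OHT and 6.50, 6.17 and 6.02 in EtOH. All 4 groups overlapped, and Ndufb11 differed by -0.16 ± 0.12 after 4OHT and by 0.06 ± 0.12 after ethanol. Ndufs5 differed by 0.00 ± 0.10 after 4OHT and by 0.16 ± 0.10 after ethanol (adjusted p = 0.255). These were the dimmest of the 42 genes, with means over 12 arrays of 6.21 and 6.08 and both below the median of all genes. A missed threshold at such levels does not show that the transcripts were unchanged.

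**Figure D3:**
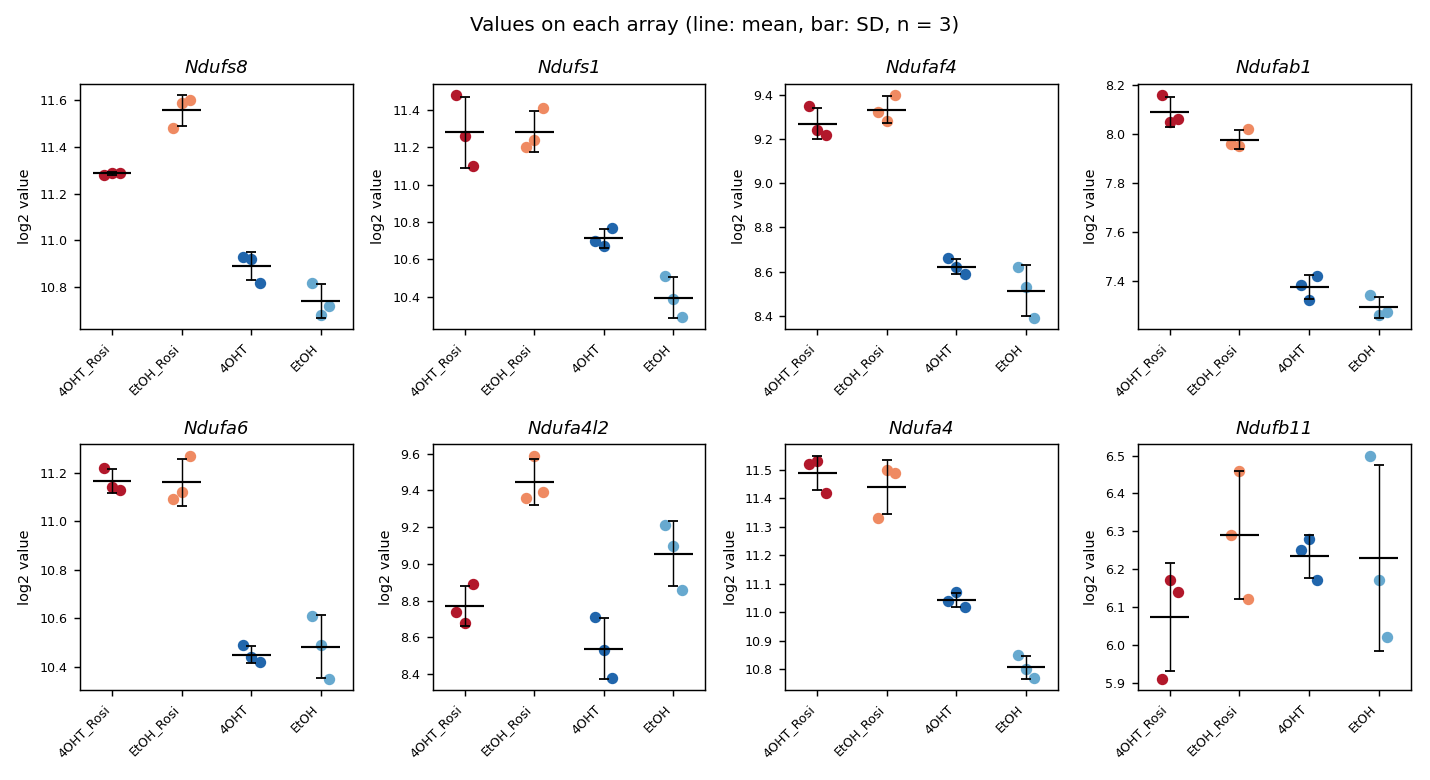
Log2 values on each array for 8 Nduf genes in 4OHT_Rosi, EtOH_Rosi, 4OHT and EtOH (points are arrays, lines are means, bars are SD, n = 3), with an axis of its own for each gene that does not start at 0. In Ndufs1, Ndufaf4, Ndufab1, Ndufa6 and Ndufa4 both rosiglitazone groups lie above both groups without it, Ndufs8 has 4OHT_Rosi below EtOH_Rosi, Ndufa4l2 is low in both 4OHT groups, and Ndufb11 shows no order.

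For 3 genes a second probe set with 1 symbol was present. The dimmer set of Ndufa8 differed by 0.47 ± 0.09 after 4OHT and 0.64 ± 0.09 after ethanol, close to the brighter one. The dimmer set of Ndufa12 differed by 0.18 ± 0.07 after 4OHT and 0.39 ± 0.07 after ethanol, also close to the brighter one. In the limma fit over all probe sets neither Ndufa12 set passed after 4OHT (adjusted p = 0.115 for the dimmer and 0.0712 for the brighter). For Ndufa11, a subunit at the contact of complex I with other complexes, the sets disagreed in size. The brighter one rose by 0.44 ± 0.08 after 4OHT and 0.55 ± 0.08 after ethanol in the fit over all probe sets. The dimmer one gave 0.29 ± 0.13 after 4OHT and 0.15 ± 0.13 after ethanol, and passed in neither.

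Promoter windows were read for the genes, since their members moved together with rosiglitazone. RefSeq promoter sequences on build GRCm38.p6, from 250 bases before to 50 bases after the start site, were matched by gene for 37 of the 42 genes. Ndufa2, Ndufa4l2, Ndufaf6, Ndufb9 and Ndufs1 had no entry in that table. Of the matched genes, 2 had 2 promoters each. Shown are Ndufs8, Ndufaf4, Ndufaf8 and Ndufb11. The response of Ndufs8 to rosiglitazone was called different between 4OHT and ethanol, a call that leaving out single arrays often ended. Ndufaf4 was among the 4 largest rises in both settings, Ndufaf8 holds 2 of the searched motifs, and Ndufb11 passed in neither setting. Each sequence runs 5′ to 3′ on the strand of the gene in lower case, with the searched motifs in capitals. The windows lie at chr19:3912725-3913024 (minus strand) for Ndufs8, chr4:24897833-24898132 (plus strand) for Ndufaf4, chr11:120098684-120098983 (plus strand) for Ndufaf8 and chrX:20617570-20617869 (minus strand) for Ndufb11.
Ndufs8: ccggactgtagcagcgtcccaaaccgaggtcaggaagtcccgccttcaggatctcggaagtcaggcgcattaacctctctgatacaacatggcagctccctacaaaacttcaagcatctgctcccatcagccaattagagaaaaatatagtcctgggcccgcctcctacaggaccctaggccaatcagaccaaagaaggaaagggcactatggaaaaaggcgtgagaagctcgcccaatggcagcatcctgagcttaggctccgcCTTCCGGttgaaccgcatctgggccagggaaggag
Ndufaf4: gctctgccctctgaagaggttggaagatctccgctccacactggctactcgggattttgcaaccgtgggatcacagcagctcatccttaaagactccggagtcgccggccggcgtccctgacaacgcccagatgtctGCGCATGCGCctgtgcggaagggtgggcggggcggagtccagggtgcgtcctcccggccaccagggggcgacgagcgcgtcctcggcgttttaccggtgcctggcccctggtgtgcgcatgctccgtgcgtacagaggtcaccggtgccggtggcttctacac
Ndufaf8: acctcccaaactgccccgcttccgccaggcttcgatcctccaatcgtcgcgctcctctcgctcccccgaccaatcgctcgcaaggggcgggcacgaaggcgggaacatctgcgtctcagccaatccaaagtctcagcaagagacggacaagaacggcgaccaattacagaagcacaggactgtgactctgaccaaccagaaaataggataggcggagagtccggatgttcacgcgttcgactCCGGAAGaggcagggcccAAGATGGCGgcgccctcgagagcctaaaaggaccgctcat
Ndufb11: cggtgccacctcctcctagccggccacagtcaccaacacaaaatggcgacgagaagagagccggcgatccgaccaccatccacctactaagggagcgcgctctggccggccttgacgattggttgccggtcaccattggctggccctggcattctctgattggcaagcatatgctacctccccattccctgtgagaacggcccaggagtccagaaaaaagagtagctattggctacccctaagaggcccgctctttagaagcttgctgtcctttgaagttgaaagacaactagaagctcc

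Exact matches to 4 motifs were sought on both strands. The motif GCGCATGCG, a core of NRF1 sites, was in 4 of the 37 genes (10.8%), against 1.95% of all 27025 genes in the table, namely in Ndufa8, Ndufa11, Ndufaf4 and Ndufaf5. NRF1 is an activator known for respiratory chain genes. This motif nearly equals its own reverse complement, so the site in Ndufaf4, which starts at position -113 relative to the start site, is matched on both strands and is 1 site. The motif CCGGAAG, bound by ETS factors such as GABPA, was in 6 genes (16.2%), against 9.93% of all genes. In Ndufs8 it lies 16 bases into the transcribed part, on the opposite strand, so that its reverse complement is in capitals above. The motif AAGATGGCG of YY1 was in 5 genes (13.5%), against 1.64% of all genes, and in Ndufaf8 it starts 11 bases into the transcribed part, after an ETS motif that starts at position -8. The motif TCAAGGTCA of estrogen-related receptors was in 0 of the 37 windows and in 0.466% of all genes, which says only that these letters are not in these windows. At least 1 of the 4 motifs was in 14 of the 37 genes, against 13.1% of all genes. Rosiglitazone differences with and without a motif were not tested, since few genes hold each one. The 4 genes with the NRF1 motif had a median of 0.46 after 4OHT and 0.57 after ethanol, and the 33 without it 0.39 after 4OHT and 0.55 after ethanol. For the ETS motif the medians were 0.42 after 4OHT and 0.64 after ethanol in the 6 genes with it, and 0.36 after 4OHT and 0.55 after ethanol in the 31 without it. For the YY1 motif they were 0.39 after 4OHT and 0.55 after ethanol in the 5 genes with it, and 0.41 after 4OHT and 0.57 after ethanol in the 32 without it. The matches are a description of the letters and do not show binding.

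The next comparison asked what 4OHT treatment of the floxed precursors changed. With rosiglitazone, 0 of the 42 Nduf genes were higher and 2 were lower in 4OHT_Rosi than in EtOH_Rosi, where 4.65% of all genes were called higher and 3.38% lower. The share of lower members, 4.76%, was thus near that of all genes. The median difference was -0.10, against -0.01 over all genes, and 34 of the 42 differences were below 0, as were 11588 of the 22180 genes tested. At an unadjusted p under 0.05, 11 were lower and 0 higher, where 9.97% of all genes were lower and 10.8% higher. On the mean level of the 42 genes per array, 4OHT_Rosi (10.01 to 10.05) lay below EtOH_Rosi (10.07 to 10.17) without overlap. Without EtOH_Rosi 3 the median was -0.05, and without 4OHT_Rosi 3 it was -0.06.

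The lower genes were Ndufa4l2 and Ndufs8. Ndufa4l2 encodes a paralog of Ndufa4 that is induced in hypoxia and is reported to restrain complex I activity, and it moved unlike the other members. Its values were 8.74, 8.68 and 8.89 in 4OHT_Rosi, against 9.36, 9.59 and 9.39 in EtOH_Rosi. The groups lay far apart, and the difference was -0.68 ± 0.10 (0.626-fold, adjusted p = 0.00144). Ndufs8 stood at 11.28, 11.29 and 11.29 in 4OHT_Rosi, against 11.48, 11.59 and 11.60 in EtOH_Rosi. The 4OHT_Rosi arrays were nearly identical and all below the EtOH_Rosi arrays, with a difference of -0.27 ± 0.06 (adjusted p = 0.0129). Ndufa7, an N module subunit, was at 9.53, 9.76 and 9.61 in 4OHT_Rosi, against 9.81, 10.02 and 9.92 in EtOH_Rosi. It did not overlap and just missed the threshold at -0.28 ± 0.08 (adjusted p = 0.0535). The call of Ndufs8 was lost without EtOH_Rosi 2 (adjusted p = 0.0543) or EtOH_Rosi 3 (0.0532), and the number of lower genes was 5 without EtOH_Rosi 1, 4OHT_Rosi 2 or 4OHT 3.

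Without rosiglitazone, 1 Nduf gene was higher and 1 lower in 4OHT than in EtOH, where 2.13% of all genes were called higher and 1.79% lower. The members' shares, 2.38% in each direction, were near those of all genes. The median difference was 0.09, against 0.00 over all genes, and 37 of the 42 differences were above 0, as were 10970 of the 22180 genes tested. At an unadjusted p under 0.05, 13 were higher and 1 lower, where 8.4% of all genes were higher and 7.6% lower. The mean level per array was 9.63 to 9.70 in 4OHT and 9.53 to 9.66 in EtOH, and EtOH 1 at 9.66 overlapped the 4OHT arrays. Without EtOH 1 the median was 0.13, and without EtOH 3 it was 0.06.

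Ndufa4 was the higher gene and Ndufa4l2 the lower one. Ndufa4, named for complex I but now counted as a subunit of cytochrome c oxidase, stood at 11.04, 11.07 and 11.02 in 4OHT, against 10.85, 10.80 and 10.77 in EtOH. The groups did not overlap and the difference was 0.24 ± 0.06 (adjusted p = 0.0484). That call was lost without any one of the 4OHT or EtOH arrays (adjusted p from 0.0702 to 0.164) and without EtOH_Rosi 2, EtOH_Rosi 3, 4OHT_Rosi 1 or 4OHT_Rosi 2 (from 0.0526 to 0.06). Ndufa4l2 stood at 8.71, 8.53 and 8.38 in 4OHT, against 9.21, 9.10 and 8.86 in EtOH. It was lower without overlap, with a difference of -0.52 ± 0.10 (adjusted p = 0.0134), and leaving out EtOH 1, EtOH 2, 4OHT 2 or 4OHT 3 ended this call, with adjusted p between 0.0556 and 0.0721. Ndufs1 had the second largest difference by size, with 10.70, 10.67 and 10.77 in 4OHT, against 10.51, 10.39 and 10.29 in EtOH. Every 4OHT array was above every EtOH array, but at 0.32 ± 0.09 Ndufs1 did not pass (adjusted p = 0.0857).

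**Figure D4:**
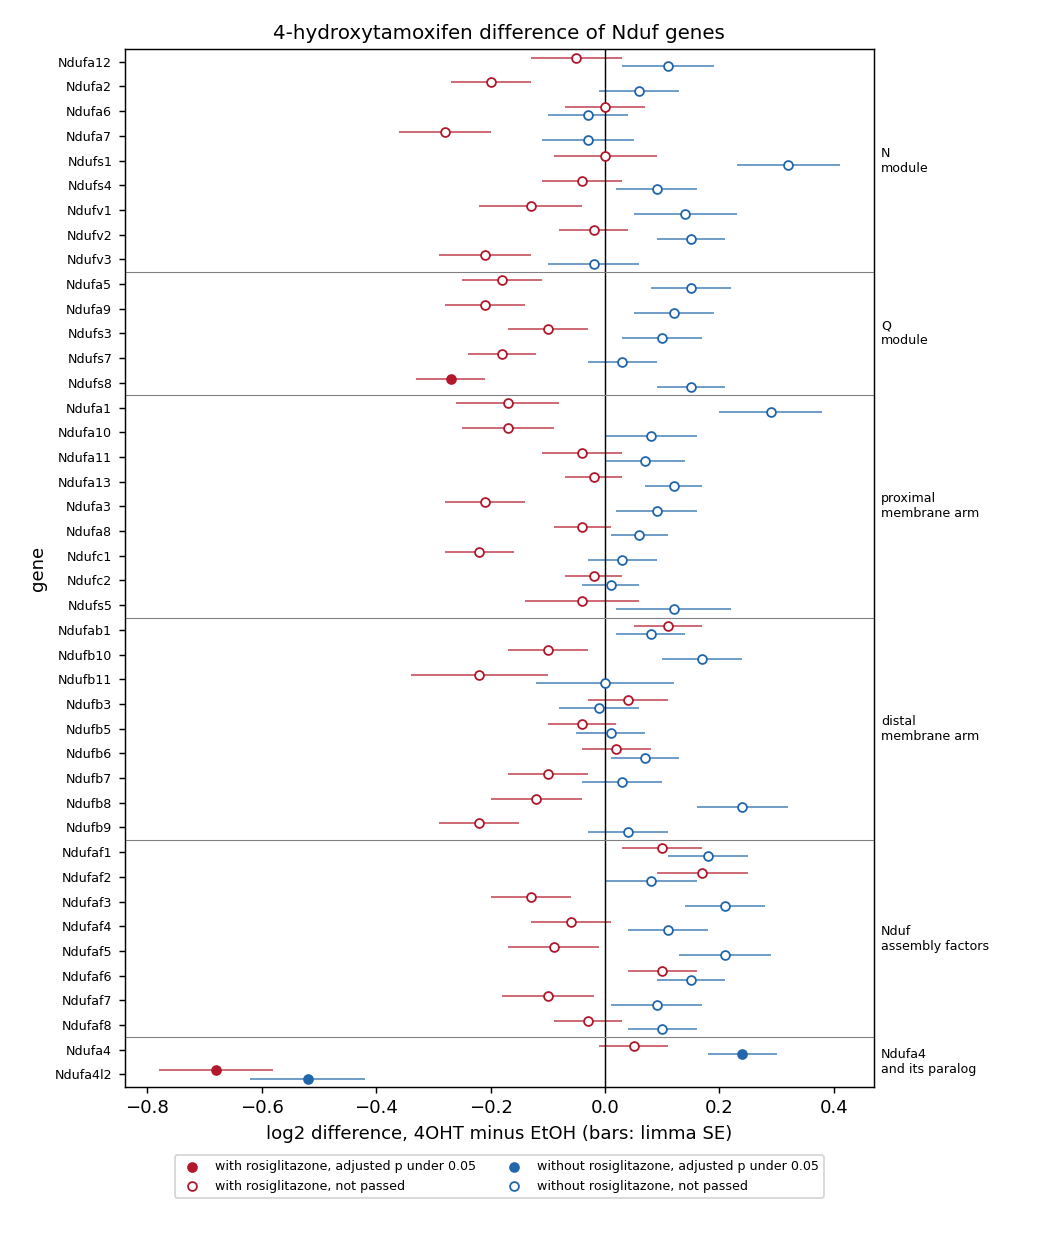
Differences of the 42 Nduf genes between 4OHT and ethanol, grouped by role, with rosiglitazone (4OHT_Rosi minus EtOH_Rosi, red) and without it (4OHT minus EtOH, blue) on the log2 scale, with limma standard errors as bars and filled points for an adjusted p under 0.05. Most red points lie left of 0 and most blue points right of it, few pass, and Ndufa4l2 is far to the left in both.

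Whether the 4OHT difference depended on rosiglitazone was tested as an interaction, the difference with rosiglitazone minus that without it. A negative value also means that rosiglitazone raised a gene by less after 4OHT than after ethanol. None of the 42 genes was called with a positive interaction and 1 with a negative one, where 0.523% of all genes were called positive and 0.482% negative. The median interaction was -0.19, against 0.00 over all genes, and 38 of the 42 values were below 0, as were 11254 of the 22180 genes tested. At an unadjusted p under 0.05, 18 members were negative and 0 positive, where 7.06% of all genes were negative and 6.94% positive. The median was -0.19 in the N module, -0.33 in the Q module, -0.16 in the proximal and -0.13 in the distal membrane arm, and -0.15 in the Nduf assembly factors.

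The called gene was Ndufs8. Rosiglitazone raised it by 0.40 ± 0.06 after 4OHT and by 0.82 ± 0.06 after ethanol, and the interaction was -0.42 ± 0.08 (adjusted p = 0.0379). In the groups without rosiglitazone it stood at 10.93, 10.92 and 10.82 in 4OHT, against 10.82, 10.68 and 10.72 in EtOH, close together. The call held without EtOH 1 or EtOH_Rosi 1 and was lost without any one of the other 10 arrays (adjusted p from 0.0505 to 0.11), while the value stayed between -0.46 and -0.39. Ndufa1, a small membrane subunit needed early in assembly, had the largest interaction by size. It was at 10.00, 9.96 and 9.74 in 4OHT_Rosi and 9.94, 10.20 and 10.08 in EtOH_Rosi, and at 9.63, 9.73 and 9.64 in 4OHT and 9.51, 9.33 and 9.29 in EtOH. The rosiglitazone groups overlapped and the others did not, and the interaction of -0.46 ± 0.12 did not pass (adjusted p = 0.104).

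Assembly genes without the Nduf prefix also rose with rosiglitazone. Of 14 measured, 10 rose after 4OHT (median 0.37), where 11.6% of all genes did, and 13 after ethanol (median 0.50), where 14.4% did, and 0 fell in either. Aifm1, which imports the oxidoreductase Chchd4 and with it supports respiratory chain assembly, rose by 0.49 ± 0.06 after 4OHT and 0.73 ± 0.06 after ethanol. Foxred1, a chaperone of complex I assembly, rose by 0.78 ± 0.07 after ethanol (adjusted p = 2.15e-06), and Ecsit, of the membrane arm assembly complex, by 0.72 ± 0.07. Chchd4 itself had the largest rise of the list after 4OHT (0.83 ± 0.06, adjusted p = 6.9e-07), and it was the 1 gene of the list that differed with rosiglitazone between 4OHT_Rosi and EtOH_Rosi, where it was higher by 0.29 ± 0.06 (adjusted p = 0.0126). Its difference runs against the median of the list in that comparison, -0.10.

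Subunits of complexes II to V rose with rosiglitazone as well. Of 38 measured, 28 rose with rosiglitazone after 4OHT (median 0.30), where 11.6% of all genes did. After ethanol 35 rose (median 0.54), where 14.4% of all genes did. The median interaction of the 38 was -0.16, with 0 called by limma at the adjusted threshold. Of all genes tested, 0.523% were called positive and 0.482% negative. The smallest adjusted p among the 38 was 0.0718, for the cytochrome c oxidase subunit Cox5a at -0.40 ± 0.09.

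Of 16 regulators of mitochondrial gene expression, 8 rose with rosiglitazone after 4OHT and 0 fell, where 11.6% of all genes rose and 12.1% fell. After ethanol 9 rose and 1 fell, where 14.4% of all genes rose and 16.3% fell. The coactivator Ppargc1a, which drives mitochondrial biogenesis, was at 9.04, 9.15 and 8.86 in 4OHT_Rosi and 8.94, 8.99 and 9.21 in EtOH_Rosi, against 7.74, 7.35 and 7.30 in 4OHT and 7.51, 7.35 and 7.09 in EtOH. It rose by 1.55 ± 0.13 after 4OHT and 1.73 ± 0.13 after ethanol, and the rosiglitazone groups overlapped, with a difference of -0.03 ± 0.13 between them (adjusted p = 0.932). Its relative Ppargc1b rose by 1.38 ± 0.09 after 4OHT and 1.72 ± 0.09 after ethanol. Ppara, a nuclear receptor for fatty acids, rose by 1.99 ± 0.09 after 4OHT and 2.88 ± 0.09 after ethanol, with an interaction of -0.88 ± 0.12 (adjusted p = 0.00776). With rosiglitazone Ppara fell after 4OHT by 0.49 on the log2 scale (adjusted p = 0.00366), as did the mitochondrial transcription factor Tfb2m, by 0.42 (adjusted p = 0.0099), while Pprc1, a relative of Ppargc1a, was higher by 0.30 (adjusted p = 0.0421). Without rosiglitazone Ppara was higher in 4OHT than in EtOH by 0.40 (adjusted p = 0.0212) and Pparg, which encodes PPARgamma, by 0.24 (adjusted p = 0.0255). Among factors whose motifs were sought above, Gabpa rose with rosiglitazone by 0.44 ± 0.06 after 4OHT and 0.48 ± 0.06 after ethanol. The estrogen-related receptor Esrra rose by 0.50 ± 0.07 and 0.47 ± 0.07, while Esrrb and Esrrg passed in neither setting. Nrf1 (-0.10 after 4OHT, 0.00 after ethanol) and Yy1 (-0.03 and 0.03) did not pass either.

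Brown fat markers were read in the same comparison. Ucp1 was at 6.29, 6.10 and 6.24 in 4OHT_Rosi, against 8.20, 7.51 and 7.65 in EtOH_Rosi. The groups lay far apart, with a difference of -1.58 ± 0.14 (adjusted p = 1.97e-05), and its interaction was -1.65 ± 0.19 (adjusted p = 0.00591). Among the 5 brown or beige markers 3 were lower in 4OHT_Rosi than in EtOH_Rosi, namely Ucp1, Cidea (-1.56) and Cox8b (-1.33). The other 2 did not pass, with 0.09 for Elovl3 (adjusted p = 0.818) and -0.03 for Dio2 (adjusted p = 0.936). Of all genes tested, 3.38% were called lower and 4.65% higher in this comparison.

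**Figure D5:**
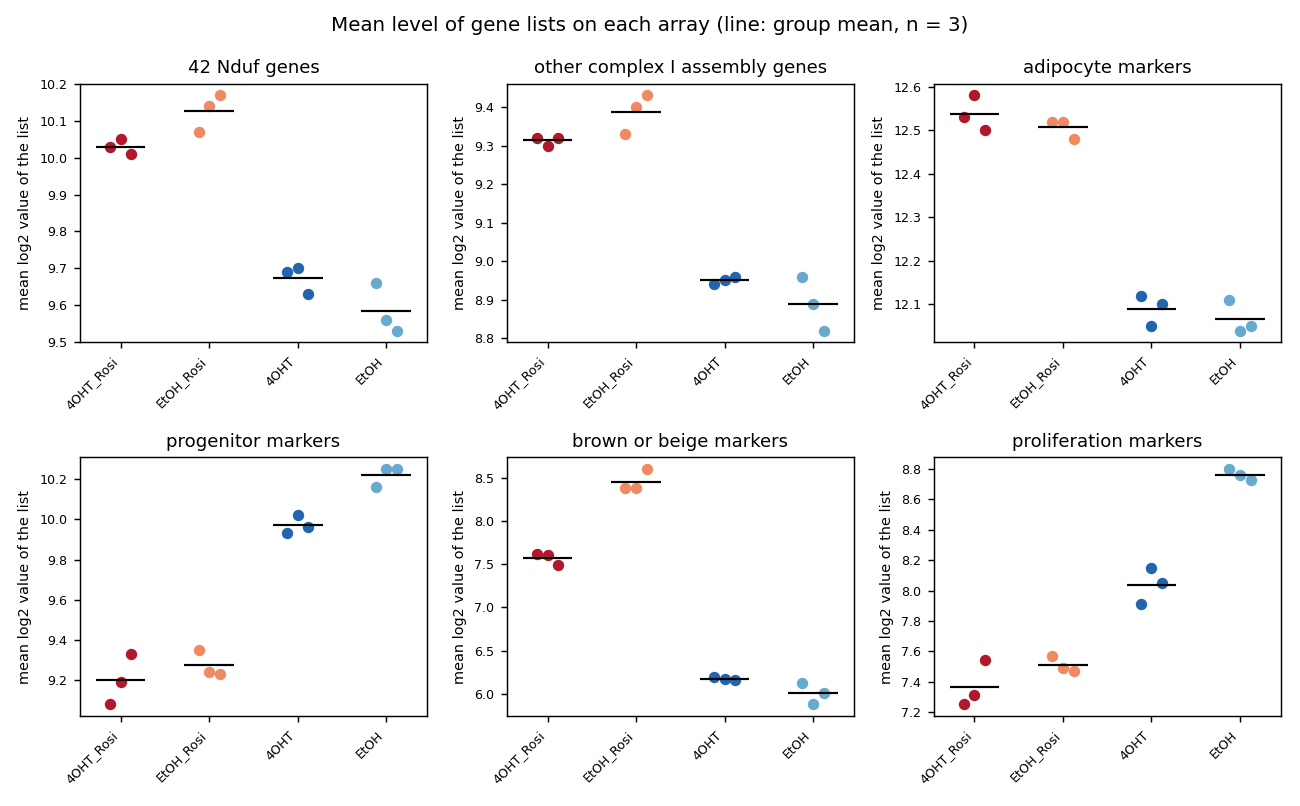
Mean log2 level of 6 gene lists on each array in 4OHT_Rosi, EtOH_Rosi, 4OHT and EtOH (points are arrays, lines are group means, n = 3), with an axis of its own for each list that does not start at 0. The Nduf genes, the other assembly genes and the adipocyte markers are high in both rosiglitazone groups, while progenitor and proliferation markers are low there. The brown or beige markers are also higher in both, but lower in 4OHT_Rosi (7.49 to 7.62) than in EtOH_Rosi (8.38 to 8.60).

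Markers of other cell types moved with rosiglitazone as well, and in these bulk samples fewer cells of a type and less RNA per cell cannot be told apart. After ethanol, 3 of the 4 measured markers of adipose progenitors, 4 of 5 of macrophages, 4 of 4 of endothelial cells, 4 of 4 of smooth muscle and 3 of 3 of proliferating cells fell. After 4OHT the counts were 3 of 4, 2 of 5, 3 of 4, 3 of 4 and 3 of 3. Of all genes tested, 12.1% fell with rosiglitazone after 4OHT and 16.3% after ethanol, while 11.6% rose after 4OHT and 14.4% after ethanol. Of the adipocyte markers 2 of 6 rose after 4OHT and 3 of 6 after ethanol, among them Cidec and Adipoq, and of the brown or beige markers 3 of 5 after 4OHT and 4 of 5 after ethanol. Between 4OHT_Rosi and EtOH_Rosi 3 of 4 smooth muscle markers were higher and 1 of 3 proliferation markers lower, and between 4OHT and EtOH these counts were 2 of 4 and 3 of 3. Of all genes, 4.65% were higher and 3.38% lower with rosiglitazone, and 2.13% were higher and 1.79% lower without it. The progenitor marker Pdgfra was lower in both comparisons, with differences of -0.39 with rosiglitazone (adjusted p = 0.0179) and -0.53 without it (adjusted p = 0.00489). No other progenitor marker passed in either, and with rosiglitazone Pdgfrb and Cd34 were at 0.09 and Dlk1 at -0.07. With rosiglitazone the endothelial marker Kdr was higher after 4OHT by 0.49 (adjusted p = 0.00366). The other endothelial markers did not pass there, with Cdh5 at 0.10, Pecam1 at -0.04 and Tek at -0.11. Without rosiglitazone the macrophage marker Itgam differed by -0.63 (adjusted p = 0.0111). The other macrophage markers did not pass, with differences from -0.36 to 0.03. Among adipocyte markers Cidec differed there by -0.39 (adjusted p = 0.00804) and Pparg by 0.24, and the others did not pass. The lowest value of any probe set was 3.05, so a level of 0 does not occur on this scale. Cidea was dim, with mean levels of 5.10 in 4OHT_Rosi, 6.66 in EtOH_Rosi, 4.92 in 4OHT and 4.85 in EtOH, where the 25th percentile of all genes was 5.22.

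The level of each list, summed over its markers and then taken as log2, is set by its brightest members. For adipocyte markers it was 15.30 to 15.39 in 4OHT_Rosi and 15.30 to 15.35 in EtOH_Rosi, against 15.06 to 15.10 in 4OHT and 15.02 to 15.06 in EtOH. For brown or beige markers it was 12.71 to 12.74 in 4OHT_Rosi and 12.77 to 12.82 in EtOH_Rosi, against 8.87 to 9.02 in 4OHT and 8.55 to 9.0 in EtOH. Both sums were higher in the rosiglitazone groups, but few members carried them. Among adipocyte markers Cidec rose by 2.19 after 4OHT and 1.89 after ethanol, while the median of the 6 was 0.08 after 4OHT and 0.15 after ethanol. The brown or beige sum was mostly Elovl3, with a mean level of 12.61 in 4OHT_Rosi and 12.52 in EtOH_Rosi. The mean log2 level of the 5 brown or beige markers was 7.49 to 7.62 in 4OHT_Rosi and 8.38 to 8.60 in EtOH_Rosi, against 6.16 to 6.2 in 4OHT and 5.88 to 6.13 in EtOH. For progenitor markers the sum was 11.90 to 12.30 in 4OHT_Rosi and 12.09 to 12.23 in EtOH_Rosi, against 12.96 to 13.02 in 4OHT and 13.33 to 13.42 in EtOH. For proliferation markers it was 8.86 to 9.16 in 4OHT_Rosi and 9.10 to 9.23 in EtOH_Rosi, against 9.54 to 9.78 in 4OHT and 10.39 to 10.43 in EtOH. Both sums were lower in the rosiglitazone groups, and lower in 4OHT than in EtOH. For macrophage markers the sum was 11.32 to 11.42 in 4OHT_Rosi and 11.18 to 11.34 in EtOH_Rosi, against 11.66 to 11.84 in 4OHT and 11.75 to 11.99 in EtOH. For endothelial markers it was 11.47 to 11.80 in 4OHT_Rosi and 11.51 to 11.66 in EtOH_Rosi, against 12.14 to 12.24 in 4OHT and 12.19 to 12.43 in EtOH. For smooth muscle markers it was 12.38 to 12.79 in 4OHT_Rosi and 11.79 to 12.26 in EtOH_Rosi, against 13.03 to 13.12 in 4OHT and 12.98 to 13.15 in EtOH. The part of these marker shifts in the differences of the Nduf genes was not tested.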

How the data were processed

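RNA of 12 samples in 4 groups was measured on Affymetrix arrays. The authors deposited 1 table of log2 values for 41345 probe sets and 12 arrays. It was made with Affymetrix Expression Console, per the submitters' processing notes. No source used here names its version, how probes were summarised or how arrays were normalized. Array medians lay between 5.97 and 6.05 and values between 3.05 and 13.91. The number of arrays limits the precision.

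Of the probe sets, 23521 had 1 gene symbol, 1814 several and 16010 none. Symbols were updated by Entrez ID for 23328 of the first. The brightest probe set per gene left 22180 genes (1082 had several probe sets). Nduf symbols had 45 such probe sets for 42 genes, and 6 further Nduf probe sets with several symbols were left out, which leaves Ndufs6, Ndufb2 and Ndufb4 unmeasured. Some other nuclear subunits and all mitochondrially encoded ones were not analysed here, nor were Coa1, Cox6c and Ly6a of the other lists.

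All 12 arrays entered 1 linear model with a mean for each group (limma 3.58.1, R 4.3.3), followed by eBayes (8 residual and 5.07 prior degrees of freedom). The Benjamini-Hochberg step ran over all 22180 genes in each of the 5 comparisons, genes were called at an adjusted p under 0.05 with no fold minimum, and n is 3 arrays per group. The steps were tested on simulated data. Plots used Python 3.11.15 and matplotlib 3.10.9.

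Values on every array are given for the 4 largest rises and the 4 largest falls of Nduf genes among those called in a comparison, or for the 2 largest by size where fewer were called, for Nduf genes called for the interaction, and for Prdm16, Ucp1 and Ppargc1a. Up to 3 members of a comparison list were named by the smallest p. Ndufb11 and other members were added as examples. The members and lists were chosen with earlier results of these data known.

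Results were recomputed with replicate number as a block, with only the arrays of both groups compared, with trended and robust eBayes, after quantile normalization, after centring each array on its median, without genes whose mean lay under the 25th percentile, with probe sets of a gene averaged, and without each array in turn.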

Additional observations from a re-analysis of the deposited data

Results flagged for a closer look

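Ndufs8 was marked because its 4OHT difference was not the same with and without rosiglitazone. The test of that difference gave -0.42 ± 0.08 (adjusted p = 0.0379 in limma), from -0.27 ± 0.06 with rosiglitazone and 0.15 ± 0.06 without it (adjusted p = 0.221). It was the 1 Nduf gene of 42 that passed this test. The call was lost without any one of 10 of the 12 arrays, with a replicate block (adjusted p = 0.0856) and with median centring (0.0568).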

How the results depend on the processing

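The 40 rises with rosiglitazone after ethanol stayed between 39 and 40 without each array in turn, and the 33 after 4OHT between 28 and 33. Of these, 38 and 28 genes were called without every single array, and 40 and 30 under every other alternative. Ndufb3 and Ndufa4l2 lost their calls after ethanol without 2 arrays each, namely EtOH 2 or EtOH_Rosi 1 for Ndufb3 (adjusted p = 0.0525 and 0.0553) and EtOH 3 or EtOH_Rosi 2 for Ndufa4l2 (0.0569 and 0.0552). The medians lay between 0.54 and 0.59 after ethanol and between 0.36 and 0.40 after 4OHT. No result reversed.

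The few calls between 4OHT and ethanol depended on the setting. Without rosiglitazone, where 1 gene was higher, the count was 0 with a replicate block or median centring, 3 in a fit of the 2 groups and 4 with an intensity trend and robust eBayes. It ranged from 0 to 2 without each array in turn, and that of lower genes from 0 to 1. With rosiglitazone, where 2 genes were lower, the count was 1 in a fit of the 2 groups, 4 with quantile normalization or the filter, and 8 with the trend. It ranged from 1 to 5 without each array in turn. For the interaction, where 1 gene was lower, it was 0 with a replicate block or median centring and 2 with the trend, and ranged from 0 to 1 without each array. The cause was not tested. The medians lay between 0.06 and 0.13, between -0.11 and -0.05, and between -0.22 and -0.16 in these 3 comparisons, without each array.

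Same-numbered arrays of different groups had deviations that correlated between -0.24 and 0.08, and differently numbered ones between -0.16 and 0.32. With so few arrays per group, these values cannot show whether same-numbered arrays shared a culture or a batch. The labels state no pairing, and none was used in the main model. With the replicate block Ndufs8 had an adjusted p of 0.0856 for the interaction and Ndufa4 one of 0.0883, while 31 genes rose after 4OHT and 40 after ethanol. Ndufb11 and Ndufs5 were dim and no detection level was set, and whether low signal limited their calls was not tested.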

Other observations

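Nduf probe sets with several gene symbols, which belong in no comparison above, gave group means only. The probe set shared by Ndufs5 and the pseudogene Ndufs5-ps had means of 7.74 in 4OHT_Rosi and 7.91 in EtOH_Rosi, against 7.38 in 4OHT and 7.37 in EtOH, so that rosiglitazone differences of 0.36 after 4OHT and 0.54 after ethanol were seen where the dim single-symbol probe set of Ndufs5 gave 0.00 and 0.16. The brighter probe set shared by Ndufs6 and Ndufs6b had 11.44 in 4OHT_Rosi and 11.51 in EtOH_Rosi, against 11.08 in 4OHT and 10.99 in EtOH. The probe set shared by Ndufb4 and 2 related symbols had 9.79 in 4OHT_Rosi and 9.95 in EtOH_Rosi, against 9.53 in 4OHT and 9.47 in EtOH. The probe set shared by Ndufb2 and Adck2 had 7.73 in 4OHT_Rosi and 7.68 in EtOH_Rosi, against 7.36 in 4OHT and 7.31 in EtOH. The probe set shared by Ndufs1 and Ino80dos was dim and had 6.46 in 4OHT_Rosi and 6.33 in EtOH_Rosi, against 6.45 in 4OHT and 6.33 in EtOH. Its rosiglitazone differences were thus 0.01 after 4OHT and 0.00 after ethanol, where the bright single-symbol probe set of Ndufs1 gave 0.57 and 0.89. These values were not tested.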
